A study of Mus musculus with 24 samples.

Results

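The genes described here encode the proteins of the cytosolic ribosome, in the hypothalamus of 2 mouse strains at 2 ages. The family was chosen with earlier results of these data known. Its members were set by gene symbol alone, as the numbered Rpl and Rps genes and the stalk genes Rplp0, Rplp1 and Rplp2. Only probe sets that carry 1 gene symbol were used. Where a gene had several such probe sets, the brightest by its mean of 24 arrays was used. This gave 58 of 19937 genes on the array, 37 of the large subunit and 21 of the small subunit. In RefSeq 57 of the 58 are protein-coding genes, and Rps4l is a transcribed pseudogene. A further 16 ribosomal protein genes had only probe sets shared between several symbols and are given apart from the members.

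The ribosome is built in the nucleolus from ribosomal RNA and ribosomal proteins, with 1 copy of nearly every protein in each particle. The small subunit reads the messenger RNA, and the large subunit joins amino acids and carries the acidic stalk that recruits elongation factors. Most ribosomal protein transcripts begin with a run of pyrimidines at the 5′ end, the terminal oligopyrimidine motif, through which mTOR signalling controls their translation. These genes also have many processed pseudogenes of near-identical sequence, so an array probe set may take up signal from more than 1 copy, which was not tested.

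The study asked how hypothalamic gene expression differs between BPH/2J mice, an inbred line with high blood pressure, and BPN/3J mice, the normotensive line kept beside it. Its 4 groups of 6 male mice were BPH/2J at 6 weeks, BPN/3J at 6 weeks, BPH/2J at 26 weeks and BPN/3J at 26 weeks. Each array held the RNA of 1 mouse, none was pooled, and all mice were killed at the daily peak of blood pressure under ordinary housing without treatment. Both strains are inbred lines and differ at many loci, so no single gene defines the contrast. The series' design text writes BPN/2J once where the sample labels write BPN/3J, and the labels' name is kept.

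Values are log2 values from RMA, which brings the distributions of arrays close together, so a difference is read against the rest of that array. The deposited distributions were not wholly equal: the median of all probe sets ran from 5.89 to 6.09 over the arrays. The number of arrays limits the precision. All 13 measured hypothalamic neuron markers lay above the median of the unnamed probe sets in every group, and 3 to 4 of 6 pituitary markers lay at or below it. That median ran from 4.60 to 5.25 over the arrays and was highest on BPN/3J 26-week replicate 6. In whole tissue, fewer cells of a type and less RNA per cell cannot be told apart.

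The clearest pattern among the ribosomal protein genes lay inside the 26-week groups. In both strains replicates 1-4 were high and replicates 5-6 lay near the level of the 6-week mice, most of all for the small subunit. The median of the 21 small-subunit genes on an array was 10.71 to 11.08 in BPH/2J 26-week replicates 1-4 and 10.31 to 10.32 in replicates 5-6. In BPN/3J it was 10.75 to 10.87 in replicates 1-4 and 10.11 to 10.44 in replicates 5-6. At 6 weeks it was 10.28 to 10.61 in BPH/2J and 10.26 to 10.40 in BPN/3J. All 8 arrays of the first set thus lay above the other 16 arrays for the small subunit. The median over all 19937 genes moved little, from 6.70 to 6.84 over the 24 arrays.

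**Figure D1:**
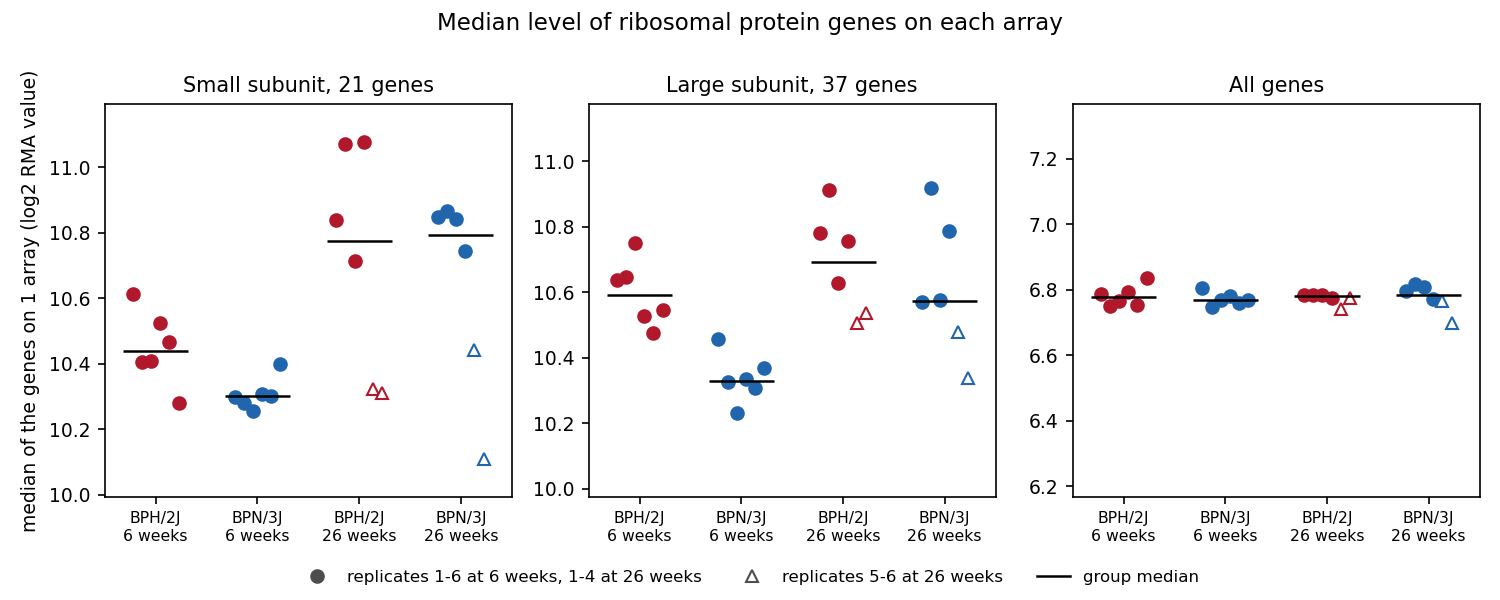
Median log2 RMA value over the small-subunit genes, the large-subunit genes and all genes on each array, by strain and age, with axes of equal span; points are arrays, open triangles are 26-week replicates 5-6, and lines are group medians. The small-subunit medians of 26-week replicates 1-4 (10.71 to 11.08) stand above all other arrays, whereas the medians of all genes stay between 6.70 and 6.84.

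The large subunit followed the same division less sharply. Its array median was 10.63 to 10.91 in BPH/2J 26-week replicates 1-4 against 10.51 to 10.54 in replicates 5-6. In BPN/3J it was 10.57 to 10.92 against 10.34 to 10.48. At 6 weeks the large-subunit median was 10.48 to 10.75 in BPH/2J and 10.23 to 10.46 in BPN/3J, without overlap. The median of 37 genes is the value of 1 gene, and on most 6-week arrays that gene was Rplp0. The lack of overlap thus largely repeats the strain difference of Rplp0 and does not show a shift of the whole subunit. The labels name no batch, litter or date for the 26-week replicate numbers, and the division was proposed with earlier results of these data known. The difference between the sets is therefore described here without a test.

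The spread of the members showed the same thing from another side. The median SD over the 58 genes was 0.12 in 6-week BPH/2J mice and 0.083 in 6-week BPN/3J mice, and 0.22 and 0.21 in the 26-week groups of BPH/2J and BPN/3J. Within 26-week replicates 1-4 alone it was 0.095 in BPH/2J and 0.12 in BPN/3J. Over all genes the median SD rose less, from 0.14 and 0.10 at 6 weeks to 0.16 and 0.18 at 26 weeks.

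**Figure D2:**
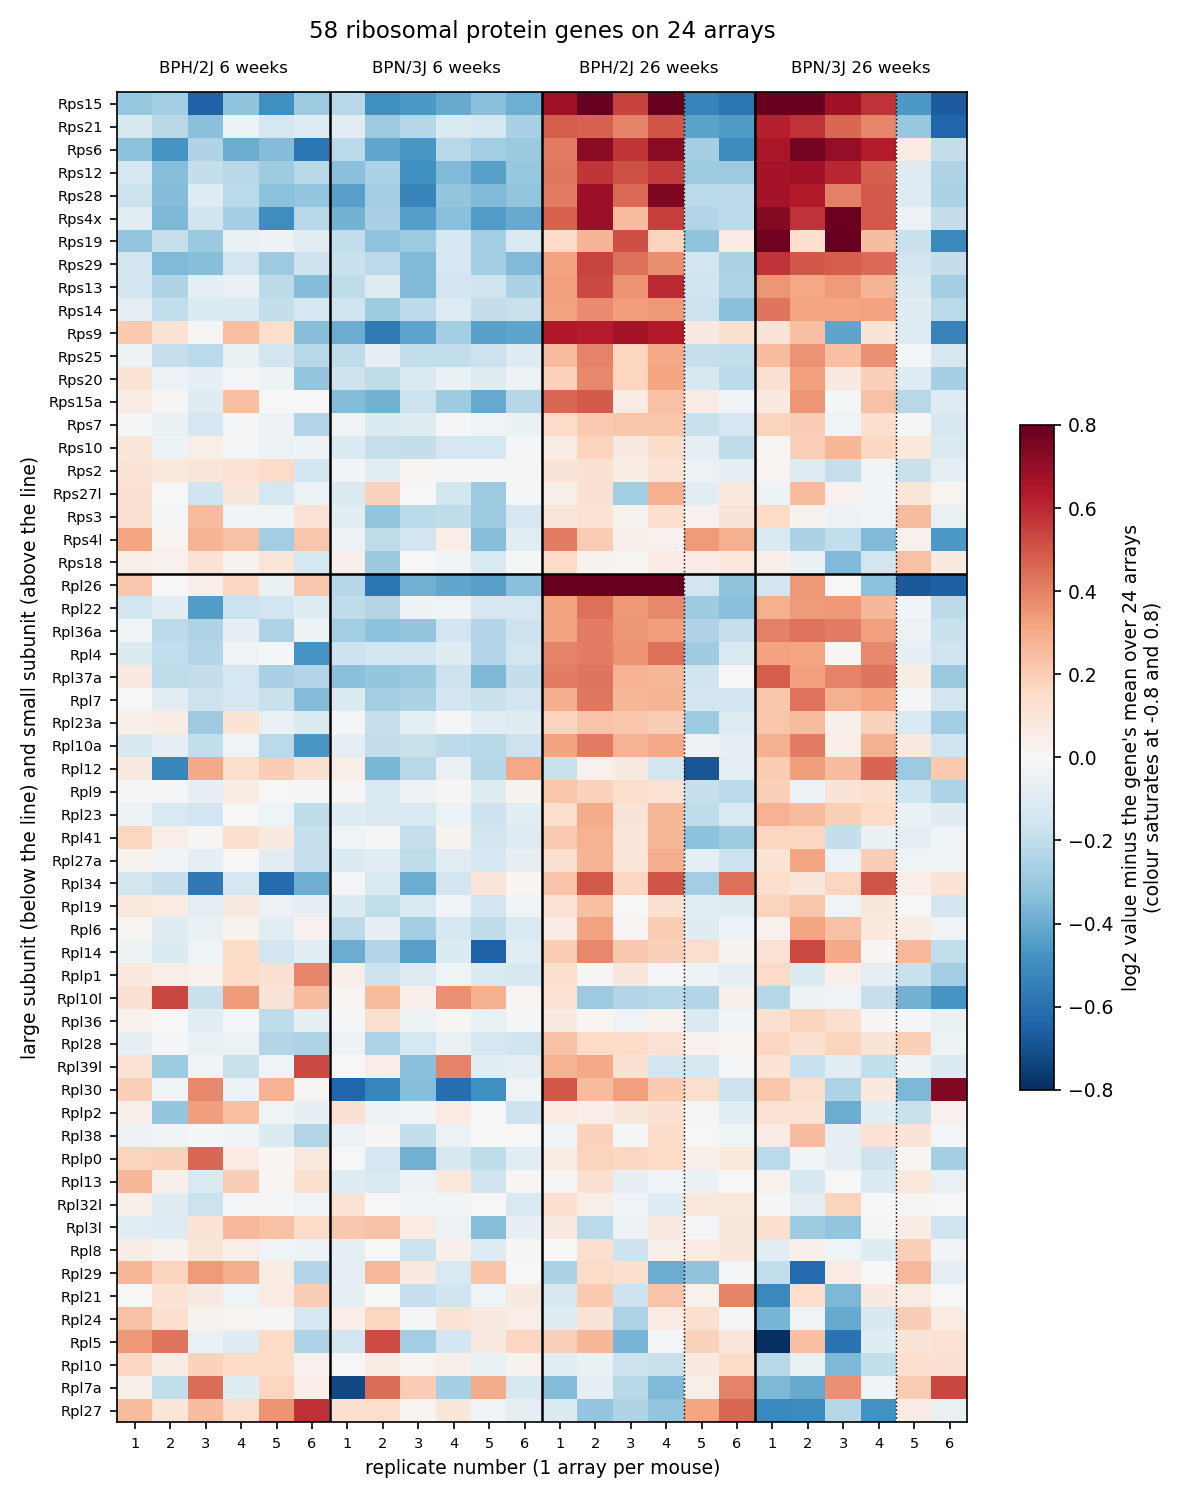
Log2 value of each of the 58 genes on each of the 24 arrays, minus the gene's own mean, with the small subunit above the horizontal line, the large subunit below it and dotted lines between 26-week replicates 1-4 and 5-6. Most small-subunit rows are red in 26-week replicates 1-4 of both strains, and Rpl27 at the foot shows the opposite colours.

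Of the 58 genes, 22 (37.9%) had all of replicates 1-4 above both of replicates 5-6 in each strain, beside 11.3% of all genes. In the small subunit this held for 12 of 21 genes (57.1%) and in the large subunit for 10 of 37. The opposite order in both strains was found for 2 members, Rpl10 and Rpl27, which is 3.45% of the 58 beside 7.61% of all genes. Within 1 strain the higher order was seen for 35 members in BPH/2J, where 23.1% of all genes showed it, and for 25 in BPN/3J, where 17.0% did. The median difference between the replicate sets was 0.28 in BPH/2J and 0.19 in BPN/3J over the members. For the small subunit it was 0.47 and 0.38, for the large subunit 0.16 and 0.14, and over all genes -0.021 and 0.016.

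Rps15, a protein of the small subunit's head, had the largest difference. In BPH/2J 26-week replicates 1-4 its log2 values were 10.84, 11.38, 10.71 and 11.56, and in replicates 5 and 6 they were 9.63 and 9.58. In BPN/3J replicates 1-4 had 10.98, 11.14, 10.84 and 10.74, and replicates 5 and 6 had 9.71 and 9.50. The first set stood above every 6-week array (9.52 to 9.89 in BPH/2J and 9.67 to 9.94 in BPN/3J), and the second set lay in or just below the 6-week range. The mean over both strains of the difference between sets was 1.42, or 2.68-fold. Rps15 has 3 probe sets, and the mean of them all gave a smaller age difference, as stated with the age results.

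Rps21, also of the small subunit, differed by 0.90 in BPH/2J and 0.98 in BPN/3J. Its values were 11.14 to 11.25 in BPH/2J replicates 1-4 against 10.29 and 10.32 in replicates 6 and 5, and 11.14 to 11.36 in BPN/3J replicates 1-4 against 10.44 and 10.11 in replicates 5 and 6. Here replicates 5 and 6 lay below every 6-week array of their own strain (10.41 to 10.70 in BPH/2J and 10.46 to 10.65 in BPN/3J). Rps21 therefore had both the highest and the lowest of its 24 values at 26 weeks.

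Rps6 is the ribosomal protein phosphorylated by the kinases downstream of mTOR. It measured 12.54 to 12.85 in BPH/2J replicates 1-4 and 11.86 and 11.63 in replicates 5 and 6. In BPN/3J it measured 12.76 to 12.90 and then 12.20 and 11.94. The 6-week ranges were 11.55 to 11.89 and 11.67 to 11.92, so in BPN/3J replicates 5 and 6 kept slightly above the young mice while in BPH/2J they did not.

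Rpl26, which sits by the exit of the peptide tunnel, was the only large-subunit gene among the 4 with the largest difference between sets, 1.16 in BPH/2J and 0.63 in BPN/3J. Its values were 8.93, 8.92, 8.87 and 8.73 in BPH/2J replicates 1-4 and 7.79 and 7.61 in replicates 5 and 6. In BPN/3J they were 7.78, 8.28, 7.94 and 7.61, then 7.26 and 7.28. The strains differed for this gene as well, which is taken up with the strain results.

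Other small-subunit genes moved in parallel in both strains. Rps12 differed between the sets by 0.80 in BPH/2J and 0.78 in BPN/3J, Rps28 by 0.79 and 0.73, Rps4x, the X-linked form of Rps4, by 0.71 and 0.77, and Rps29 by 0.62 and 0.68. Rps19, the gene most often mutated in the human anaemia Diamond-Blackfan, was less even, with 0.41 and 0.89. Rps13, Rps14, Rps20 and Rps25 completed the 12 small-subunit genes without overlap in both strains. In the large subunit the 10 genes were Rpl26, Rpl22, Rpl36a, Rpl4, Rpl37a, Rpl7, Rpl23a, Rpl9, Rpl23 and Rplp1, with mean differences from 0.90 for Rpl26 down to 0.17 for Rplp1. Rpl22 measured 8.91 to 9.03 in BPH/2J replicates 1-4 and 8.26 to 8.31 in replicates 5-6, and 8.86 to 8.94 against 8.38 to 8.57 in BPN/3J.

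A smaller group ran the other way. Rpl27, of the large subunit, was at 9.43, 9.23, 9.30 and 9.23 in BPH/2J replicates 1-4 and at 9.86 and 10.01 in replicates 5 and 6. In BPN/3J it was at 9.03, 9.04, 9.32 and 9.06, then 9.61 and 9.49. The first set thus lay below all 12 arrays of the 6-week mice (9.64 to 10.13 and 9.47 to 9.69). Rpl10, the X-linked protein that joins the large subunit late in its assembly, was at 12.46 to 12.58 in BPH/2J replicates 1-4 against 12.71 to 12.78, and at 12.28 to 12.58 in BPN/3J against 12.76 to 12.77. Its difference was small, -0.23 and -0.34, but the sets did not overlap in either strain.

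Rpl7a and Rpl5 also had lower means in replicates 1-4, without a clean separation. Rpl7a differed by -0.47 in BPH/2J and -0.48 in BPN/3J, on a probe set at or below the unnamed median on 1 array, and its sets overlapped in BPN/3J. Rpl5, which restrains Mdm2 when it is free of the ribosome, differed by -0.12 and -0.43, and in BPN/3J its replicates 1-4 spread from 10.04 to 11.13. In all, 40 members had a positive difference in both strains, 10 a negative one in both and the remaining 8 had opposite signs.

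The differences of the 58 genes in BPH/2J and BPN/3J had a Pearson r of 0.89 across genes. The same measure over all 19937 genes was 0.68. Genes are not independent replicates, and each mean rests on 4 and 2 arrays, so both values are descriptions. Of the stalk proteins Rplp0 lay near 0 in both strains, at 0.081 and 0.010, Rplp2 was at 0.14 and 0.010, and Rplp1 at 0.11 and 0.23. Rps18, of the small subunit, was at -0.008 and -0.28.

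**Figure D3:**
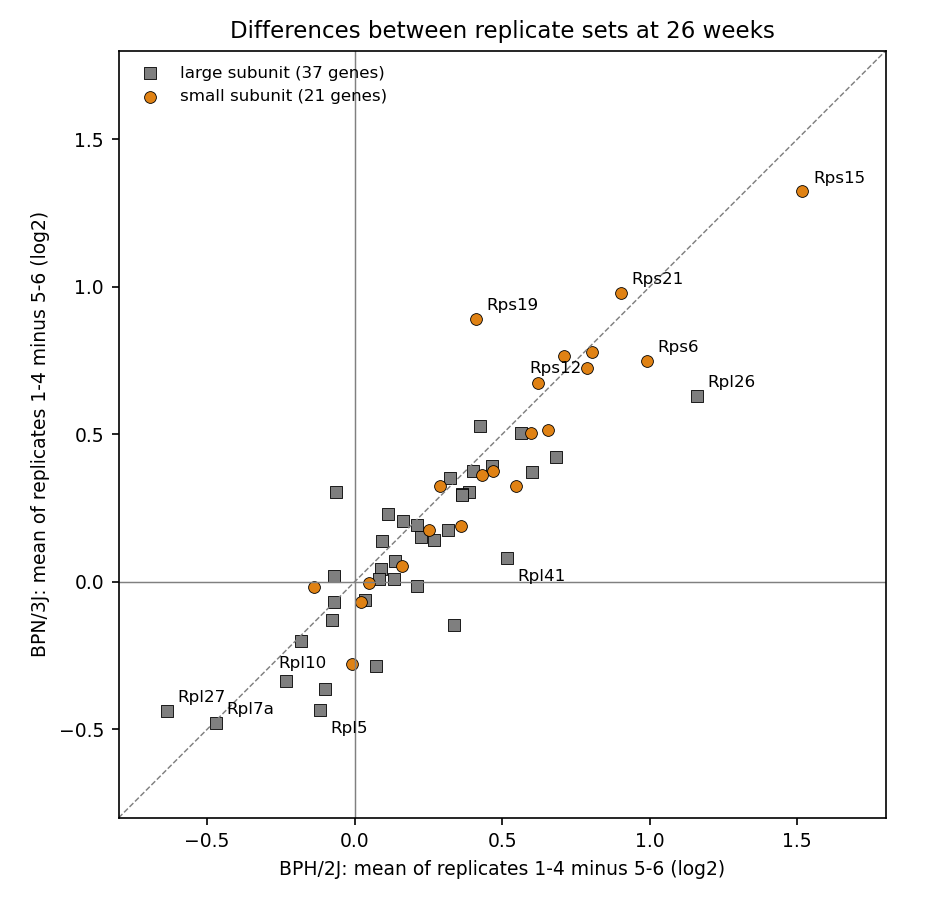
Mean of 26-week replicates 1-4 minus the mean of replicates 5-6 for each gene, BPH/2J on the x axis and BPN/3J on the y axis (log2), with the dashed line marking equal differences. Small-subunit genes fill the upper right, led by Rps15 at 1.52 and 1.33, and Rpl27, Rpl7a, Rpl10 and Rpl5 lie at the lower left.

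Start regions were compared because these genes moved together. RefSeq promoters (GRCm38.p6) were at hand for 46 members, with 55 start sites. Printed are 40 bases before the start and 20 from it, in the direction of the gene, for 3 genes that were high in replicates 1-4 (Rps15, Rps21, Rps6), 2 that were low there (Rpl10, Rpl27) and Rps18, used as a reference gene. Capitals mark the unbroken run of C and T that holds the start, which is base 41. They lie at chr10:80292391-80292450 (plus strand) for Rps15, chr2:180257339-180257398 (plus) for Rps21, chr4:86857348-86857407 (minus) for Rps6, chr17:33955646-33955705 (minus) for Rps18, chrX:74270776-74270835 (plus) for Rpl10 and chr11:101442205-101442264 (plus) for Rpl27, and Rps21 has 2 listed starts, of which the first is shown.
Rps15: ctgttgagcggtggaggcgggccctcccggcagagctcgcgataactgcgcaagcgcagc
Rps21: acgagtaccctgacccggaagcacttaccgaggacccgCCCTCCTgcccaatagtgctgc
Rps6: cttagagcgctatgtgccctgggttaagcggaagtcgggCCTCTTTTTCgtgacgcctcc
Rps18: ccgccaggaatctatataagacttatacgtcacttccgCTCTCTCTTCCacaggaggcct
Rpl10: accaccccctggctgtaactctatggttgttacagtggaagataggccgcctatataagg
Rpl27: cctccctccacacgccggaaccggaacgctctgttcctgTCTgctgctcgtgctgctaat

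In these windows Rps21, Rps6 and Rps18 start within runs of 7, 10 and 11 pyrimidines, and at the annotated starts of Rps15 and Rpl10 no such run is present. A C at the start followed by 4 pyrimidines, a strict form of the terminal oligopyrimidine motif, was found at 10 of the 55 member starts (18.2%) and at 2.51% of 32851 starts of all genes. A run of at least 5 pyrimidines over the start was present at 25.5% of member starts and 10.1% of all starts. Annotated starts can be off by a few bases, which this match does not allow for. Among the members high in replicates 1-4 in both strains, 2 of 20 starts had the strict form, and among the members in neither group 8 of 33 did.

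Over the 250 bases before and 50 after the start, on either strand, CCGGAAGT, a core bound by ETS factors, was in 12.7% of the member promoters and 3.89% of all promoters. AAGATGGC, the core of the YY1 motif, was in 3.64% and 2.75%, and TATAAA in 10.9% and 13.6%. These are matches of letters and say nothing of binding.

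Age was compared within each strain, 26 weeks minus 6 weeks, in a limma fit over all genes with Benjamini-Hochberg adjusted p-values and a threshold of 0.05. In BPH/2J 14 ribosomal protein genes rose with age and 1 fell, which is 24.1% of the members higher beside 8.23% of all genes, and 1.72% lower beside 8.64%. In BPN/3J 18 rose and 1 fell, 31.0% beside 4.60% of all genes higher and 1.72% beside 7.66% lower. The small subunit held 8 of the 14 and 10 of the 18, out of 21 genes, and the large subunit 6 and 8, out of 37. The median age difference of the members was 0.11 in BPH/2J and 0.19 in BPN/3J, beside -0.031 and -0.026 over all genes. The genes that rose in both strains were Rpl10a, Rpl28, Rpl37a, Rpl7, Rps12, Rps28, Rps29, Rps4x and Rps6, 9 in all. With the mean of all probe sets of each gene, 12 members rose in BPH/2J and 17 in BPN/3J. Rpl10a and Rpl28 then lost the call in both strains, Rps12, Rps13 and Rps15 in BPH/2J, and Rpl36a in BPN/3J. Rpl23a was gained in both strains, Rps14 and Rps25 in BPH/2J, and Rps13 in BPN/3J.

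The age differences of Rps6 were 0.67 ± 0.18 in BPH/2J (SE, n = 6 arrays per group, limma adjusted p = 0.0120) and 0.75 ± 0.18 in BPN/3J (limma adjusted p = 0.0113). Its 26-week group medians were 12.62 and 12.77, against 11.76 and 11.84 at 6 weeks, and only in BPN/3J did the ages not overlap. Rps28 rose by 0.56 ± 0.16 and 0.68 ± 0.16, from medians of 8.92 and 8.85 to 9.62 and 9.63, and its ages overlapped in BPH/2J through replicates 5 and 6. Rps12 rose by 0.48 ± 0.16 and 0.71 ± 0.16, and Rps4x by 0.52 ± 0.16 and 0.77 ± 0.16. Of these genes Rps6 kept its call in every fit without 1 array, and in BPN/3J so did Rps28, Rps12 and Rps4x. In BPH/2J the call of Rps28 was lost without 26-week replicate 2 or 4 (0.48 and 0.47), that of Rps4x without 26-week replicate 1, 2 or 4 or 6-week replicate 5 (0.43 to 0.48), and that of Rps12 without any of 26-week replicates 1-4 or of the 6-week arrays of its strain (0.42 to 0.50). Rpl28 rose by 0.23 ± 0.06 and 0.25 ± 0.06 and was the only member whose ages did not overlap in BPH/2J (10.96 to 11.20 against 11.22 to 11.44), where 1.47% of all genes were wholly higher and 2.58% wholly lower. In BPN/3J 7 members were higher at 26 weeks without overlap, Rpl27a, Rpl6, Rps12, Rps28, Rps3, Rps4x and Rps6, beside 1.25% of all genes, and Rpl10l was lower without overlap, beside 3.32%.

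Rps15 had the largest age difference of BPH/2J, 0.84 ± 0.29 (limma adjusted p = 0.0453), with a range of 9.58 to 11.56 at 26 weeks. In BPN/3J its difference was 0.70 ± 0.29 and did not pass the test (limma adjusted p = 0.103). The BPH/2J call was lost in 15 of the 24 fits that leave out 1 array, with values from 0.65 to 0.86 in those fits. These were the fits without BPH/2J 26-week replicates 1, 2, 3 or 4, BPH/2J 6-week replicates 1, 3, 4, 5 or 6, or any 6-week BPN/3J array. With the mean of its 3 probe sets the difference was 0.51 and did not pass, nor did it pass with only the BPH/2J groups in the fit. Rps15 is thus large in size and weak as a call when all 6 arrays are pooled.

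Rpl34, a large-subunit gene, rose by 0.60 ± 0.12 in BPH/2J (limma adjusted p = 0.0015), from 5.78 to 6.26 at 6 weeks to 6.12 to 6.91 at 26 weeks. It did not follow the division into sets: BPH/2J 26-week replicates 5-6 had 6.12 and 6.84, against 6.58 to 6.91 in replicates 1-4. In BPN/3J its difference was 0.27 ± 0.12 and did not pass. Rpl30 rose in BPN/3J by 0.53 ± 0.14, with BPN/3J 26-week replicate 6 highest at 7.98 and replicate 5 lowest at 6.88, and was at 0.08 ± 0.14 in BPH/2J.

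Rpl10l, an autosomal copy of Rpl10 known from the testis, was the 1 member that fell with age in each strain, by 0.33 ± 0.10 in BPH/2J and by 0.38 ± 0.10 in BPN/3J. Its values were dim, 4.71 to 5.42 and 4.91 to 5.26 at 6 weeks and 4.60 to 5.01 and 4.42 to 4.86 at 26 weeks, and 7 of the 24 arrays lay at or below the unnamed median. The BPH/2J call was lost without BPH/2J 26-week replicate 2, 3 or 4 or 6-week replicate 2, 4 or 6, and the BPN/3J call without 6-week BPN/3J replicate 4, where it was -0.34.

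The remaining calls were of moderate size. In BPH/2J they were Rps29 (0.45), Rps13 (0.41), Rps9 (0.40), Rpl10a (0.39), Rpl4 (0.38), Rpl37a (0.36) and Rpl7 (0.31). In BPN/3J they were Rps29 (0.53), Rpl37a (0.51), Rpl14 (0.49), Rpl36a (0.47), Rpl7 (0.37), Rps14 (0.37), Rps15a (0.36), Rps25 (0.34), Rpl10a (0.33), Rpl6 (0.29), Rps3 (0.26) and Rps10 (0.23). The values are log2 age differences. In BPH/2J each of these except Rpl10a was lost in at least 3 fits without 1 array. Rps29 was lost without 26-week replicate 2, 3 or 4 (0.39 to 0.42). Rps13, Rps9, Rpl4, Rpl37a and Rpl7 were lost without any of 26-week replicates 1-4 or without 6-week replicate 6, and all of these but Rps13 also without 6-week replicate 3, Rpl37a and Rpl7 also without 6-week replicate 5 (0.26 to 0.39 over these fits). In BPN/3J Rps14 was lost without any of 10 arrays, 26-week replicates 1-4 and all of the 6-week ones (0.32 to 0.38), and Rps10 without 26-week replicate 2, 3 or 4 or 6-week replicates 1 to 5 (0.20 to 0.23). Rps25 was lost without 26-week replicate 1, 2 or 4 or 6-week replicate 1 (0.30 to 0.33) and Rpl10a without 26-week replicate 1, 2 or 4 (0.28 to 0.31). Rpl7 and Rps15a were lost without 26-week replicate 2 or 4 (0.30 to 0.34 over both genes).

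How many members rose with age depended on which 26-week arrays were used. The division into sets was proposed with earlier results of these data known. Calls, SEs and p-values within a set, or with a term for it, are therefore descriptions and not independent tests. With replicates 1-4 alone, 30 members rose and 3 fell in BPH/2J (18.5% and 20.8% of all genes), and 34 rose and 3 fell in BPN/3J (16.8% and 16.8% of all genes). For the small subunit this was 15 and 17 of 21, all higher. The 2 strains shared 29 of these risen genes, 96.7% of those of BPH/2J and 85.3% of those of BPN/3J, and Rpl10 and Rpl27 fell in both. With replicates 5-6 alone, 0 members passed limma's test in either strain, beside 0.567% of all genes higher and 1.38% lower in BPH/2J and 0.0602% and 0.0752% in BPN/3J. At an unadjusted p below 0.05, a level that about 1 in 20 genes without a difference pass, there were 7 and 14. The share of all genes at that level is not given, and the fits rest on 2 arrays per 26-week group. With all arrays and a term for replicates 5-6, 23 rose and 3 fell in BPH/2J (12.9% and 13.6% of all genes), and 29 rose and 2 fell in BPN/3J (10.7% and 13.3%).

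The members' median age difference was 0.19 in BPH/2J and 0.27 in BPN/3J with replicates 1-4, and -0.034 and 0.062 with replicates 5-6. Both refits use the same 6-week arrays, so they are given side by side. For Rps6 in BPH/2J the difference was 1.00 ± 0.07 with replicates 1-4 and 0.009 ± 0.10 with replicates 5-6. For Rps12 in BPH/2J it was 0.75 ± 0.06 and -0.06 ± 0.08. For Rps15 in the same strain it was 1.35 ± 0.13 and -0.17 ± 0.10, so the direction turned. Rplp0 and Rps18 stayed within 0.22 of 0 in both sets and strains.

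**Figure D4:**
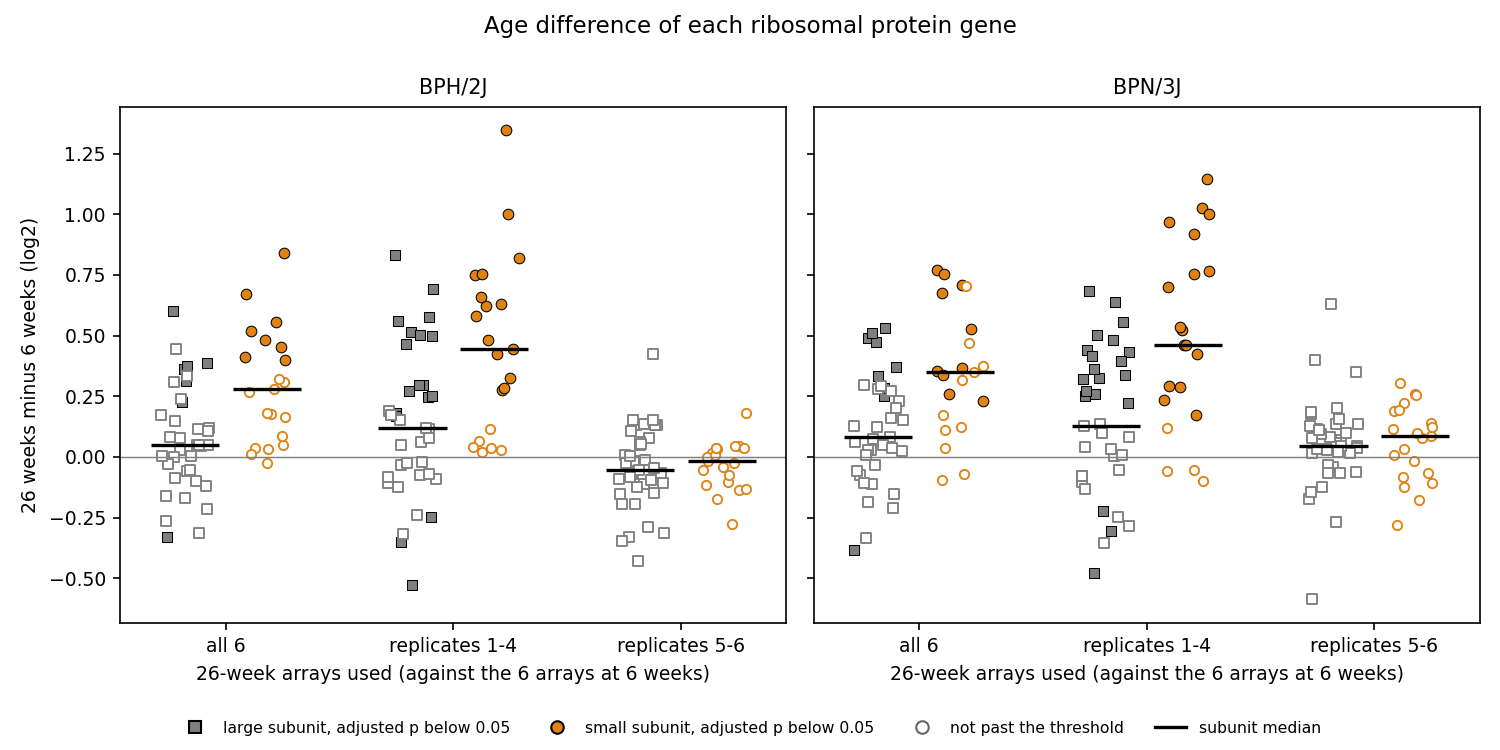
Log2 age difference (26 minus 6 weeks) of each gene by strain with all 6, replicates 1-4 or replicates 5-6 of the 26-week arrays, large subunit as squares and small subunit as circles, filled where the limma adjusted p is below 0.05; lines are subunit medians. Counts of filled points go from 15 and 19 with all arrays to 33 and 37 with replicates 1-4 and to 0 with replicates 5-6.

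Single arrays also moved the counts. In BPH/2J 15 members were called in either direction with all arrays. There were 7, 4, 6 and 4 without 26-week replicates 1, 2, 3 and 4, and 23 and 24 without replicates 5 and 6. Leaving out BPH/2J 6-week replicate 3 or 6 gave 9 and 7. In BPN/3J 19 were called with all arrays and 29 without 26-week replicate 6. The shares of all genes in the fits without 1 array are not given, so these changes are not read as particular to the members.

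Other measures moved with the replicate sets. The median of the unnamed probe sets was 4.60 to 4.73 in BPH/2J replicates 1-4 and 4.72 to 4.79 in replicates 5-6, and 4.69 to 4.78 against 4.80 to 5.25 in BPN/3J. The median of all probe sets was 5.89 to 5.96 and then 5.98 to 6.05 in BPH/2J. In BPN/3J the medians of all probe sets overlapped, at 5.93 to 6.02 and 5.99 to 6.09. The mean of 9 choroid plexus and ependyma markers was 6.41 to 8.36 and then 6.29 to 6.65 in BPH/2J, and 6.83 to 8.54 and then 6.15 to 6.31 in BPN/3J, and 3 of the 9 were high in replicates 1-4 in both strains. All 9 lay above the unnamed median in each set by their means, apart from 1 in BPN/3J replicates 5-6. The mean of the 13 hypothalamic neuron markers was 8.05 to 8.80 against 7.58 to 7.60 in BPN/3J, and 8.21 to 8.86 against 8.44 to 8.47 in BPH/2J. In BPH/2J the list means of oligodendrocyte markers (9.84 to 10.20 against 9.56 to 9.78), microglia markers (7.33 to 7.39 against 7.22 to 7.24) and endothelium markers (7.77 to 7.93 against 7.71 to 7.71) were higher in replicates 1-4 without overlap. In BPN/3J the immediate early genes were (6.84 to 7.27 against 6.67 to 6.70). No marker list had a mean without overlap between the sets in both strains. With age, 11 of 14 thalamus markers rose and 6 of 13 hypothalamic neuron markers fell in BPH/2J, and 6 of 11 oligodendrocyte markers fell in BPN/3J. The part of these in the ribosomal protein values was not tested.

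Strain was compared at each age as BPH/2J minus BPN/3J. At 6 weeks 5 members were higher in BPH/2J and 0 lower, 8.62% beside 2.99% of all genes higher and 0% beside 4.42% lower. They were Rpl30, Rps9, Rps15a, Rplp0 and Rps3, 2 of the large and 3 of the small subunit. Of the 58 differences 47 were positive, with a median of 0.069, beside 0.014 over all genes. Members without overlap between the strains were Rpl26, Rplp0, Rps15a and Rps3, 4 in all, all higher in BPH/2J, where 2.66% of all genes were wholly higher and 2.78% wholly lower.

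Rplp0, the base of the stalk, had values of 10.48 to 10.92 (median 10.59) in 6-week BPH/2J mice and 10.07 to 10.46 (median 10.33) in 6-week BPN/3J mice. The difference was 0.32 ± 0.07 (limma adjusted p = 0.0055), and no fit without 1 array lost it. At 26 weeks the values were 10.51 to 10.64 and 10.19 to 10.48, again without overlap, and the difference of 0.24 ± 0.07 did not pass (limma adjusted p = 0.0955). Rplp0 was the only member without overlap between the strains at both ages. Its partners in the stalk did not pass at 6 weeks in this fit: Rplp1 was at 0.22 ± 0.07 (limma adjusted p = 0.0558) and Rplp2 at 0.04 ± 0.09. Rplp1 did pass with only the compared groups, the mean of all probe sets, array weights or median centring. With the mean of its 2 probe sets Rplp0 passed at 26 weeks as well. Rplp2 has 1 probe set, at 5.54 to 6.19 in 6-week mice, below the median of all genes, which limits its reading.

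Rps3, at the messenger RNA entry of the small subunit, was at 10.57 to 10.84 in 6-week BPH/2J mice and 10.28 to 10.51 in 6-week BPN/3J mice. The difference was 0.28 ± 0.06 (limma adjusted p = 0.00556). At 26 weeks BPN/3J mice had 10.54 to 10.85 and BPH/2J mice 10.62 to 10.72, a difference of 0.03 ± 0.06. Rps3 also rose with age in BPN/3J and not in BPH/2J (0.01 ± 0.06), but the interaction of -0.25 ± 0.09 did not pass the test (limma adjusted p = 0.260).

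Rpl30 was at 7.19 to 7.62 in BPH/2J and 6.61 to 7.21 in BPN/3J at 6 weeks, a difference of 0.57 ± 0.14 (limma adjusted p = 0.0119). The highest BPN/3J array, replicate 6, lay above the lowest 2 BPH/2J arrays, replicates 4 and 2, and at 26 weeks the difference was 0.11 ± 0.14. Rps15a was at 8.95 to 9.29 and 8.64 to 8.88, with 0.34 ± 0.10 at 6 weeks (limma adjusted p = 0.0273). It was lost without BPH/2J 6-week replicate 1 or 4 (0.33 and 0.30) or BPN/3J 6-week replicate 1, 2 or 5 (0.33, 0.32 and 0.32), all on the same side of 0. Without BPH/2J 6-week replicate 1 or 4 the count of members called at 6 weeks fell to 3.

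Rps9, of the small subunit, was higher in BPH/2J at both ages, by 0.48 ± 0.13 at 6 weeks (limma adjusted p = 0.0205) and 0.56 ± 0.13 at 26 weeks (limma adjusted p = 0.0123). Its 6-week ranges were 10.11 to 10.69 and 9.88 to 10.18. Its 26-week ranges were 10.51 to 11.11 and 9.91 to 10.68, and they overlapped. Rps9 has 2 probe sets, and with their mean the differences were 0.14 and 0.20 and neither passed. With only the 26-week groups in the fit the 26-week call was lost too. The 6-week call was also lost without BPH/2J 6-week replicate 1 or 4, at 0.45 and 0.44.

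**Figure D5:**
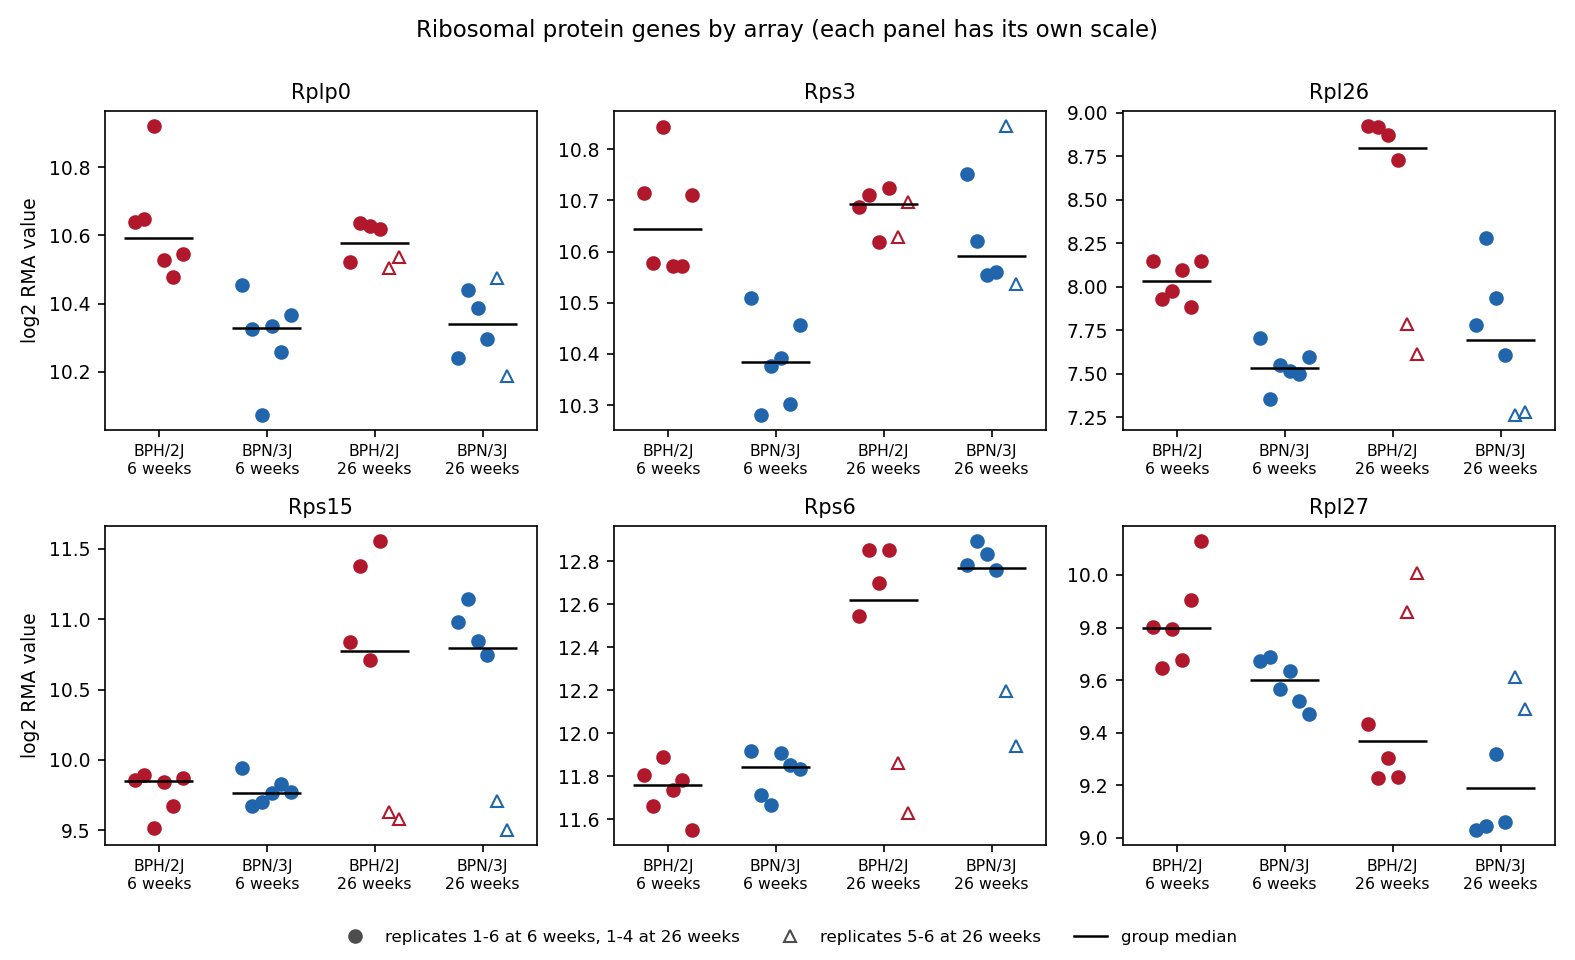
Log2 RMA values on each array for Rplp0, Rps3, Rpl26, Rps15, Rps6 and Rpl27 by strain and age, each panel with its own scale, open triangles for 26-week replicates 5-6 and lines for group medians. Rplp0 separates the strains at both ages, Rps15 and Rps6 separate the replicate sets at 26 weeks, Rpl26 separates the strains at 6 weeks and the replicate sets within each strain at 26 weeks, and Rpl27 runs opposite to Rps15.

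At 26 weeks 3 members were higher in BPH/2J and 0 lower, 5.17% beside 1.32% of all genes higher and 0% beside 1.34% lower. They were Rpl26, Rps9 and Rps4l. The median difference of the members was 0.028, beside 0.011 over all genes, and 35 of 58 were positive. Rpl26 differed by 0.78 ± 0.19 (limma adjusted p = 0.0229), with medians of 8.80 and 7.69, and at 6 weeks by 0.49 ± 0.19, where the strains did not overlap (7.88 to 8.15 against 7.35 to 7.71) but the test was not passed (limma adjusted p = 0.143).

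The strain difference of Rpl26 at 26 weeks was 0.96 within replicates 1-4, where it passed the threshold, and 0.43 within replicates 5-6, where it did not. As with age, calls within a set are descriptions, since the sets were proposed with results known. The call with all arrays was lost without BPH/2J 26-week replicate 1, 2, 3 or 4 (0.69 to 0.73) or BPN/3J 26-week replicate 5 or 6 (0.70 and 0.70), and also with only the 26-week groups in the fit. Within replicates 1-4 the members higher in BPH/2J were Rpl26 and Rps9, 2 in all (1.30% of all genes higher and 1.39% lower). Within replicates 5-6 limma called 0, beside 0.597% of all genes higher and 0.522% lower. At an unadjusted p below 0.05 there were 6, a level that about 1 in 20 genes without a difference pass. The share of all genes at that level is not given. With a term for replicates 5-6 limma called 3 (2.29% and 2.13% of all genes). The order of the 4 subsets at 26 weeks was BPH/2J replicates 1-4 highest, then BPN/3J replicates 1-4 (7.61 to 8.28) and BPH/2J replicates 5-6 (7.61 to 7.79), which overlap, then BPN/3J replicates 5-6.

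Rps4l, the transcribed pseudogene, was at 7.875 to 8.25 in 26-week BPH/2J mice and 7.38 to 7.874 in BPN/3J mice. The ranges did not overlap but nearly touched. Only Rplp0 and Rps4l had that order at 26 weeks, and 0.863% of all genes did, with 0.883% in the opposite order. The difference was 0.44 ± 0.10 (limma adjusted p = 0.00898), and no fit without 1 array lost it. At 6 weeks it was 0.26 ± 0.10 and did not pass. Within replicates 1-4 of 26 weeks it was 0.40 and within replicates 5-6 it was 0.52, neither past the threshold.

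No member passed the test for the strain by age interaction: limma called 0 of 58, beside 0.00502% of all genes higher and 0.0251% lower. At an unadjusted p below 0.05 there were 4, Rpl12 (-0.49), Rpl30 (-0.45), Rps3 (-0.25) and Rps10 (-0.20), named after their values were seen.

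At 6 weeks markers of neighbouring tissue moved with strain. Of 14 thalamus markers 11 were lower in BPH/2J, with list means of 7.97 to 9.60 against 9.56 to 9.92 in BPN/3J, and 0 of the 14 lay at or below the unnamed median. Of 13 hypothalamic neuron markers 8 were higher in BPH/2J, with list means of 8.56 to 9.45 against 7.79 to 8.53, and 5 of 11 oligodendrocyte markers were lower. Their part in the ribosomal protein differences was not tested.

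Rpl9 was at 13.35 to 13.52 in both strains at 6 weeks, at 13.41 to 13.68 in 26-week replicates 1-4 and at 13.21 to 13.30 in replicates 5-6, and its age differences were 0.05 ± 0.08 and 0.03 ± 0.08. Rps18 ranged from 11.94 to 12.53 over all arrays, and no contrast of it passed. Rpl22, known for its use as a tag to isolate ribosomes, had age differences of 0.33 ± 0.12 and 0.30 ± 0.12 that did not pass. Rpl13a and Rps27a are not among the members, having no probe set that met the rule.

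Of the paralogs found mostly in other tissues, Rpl3l, the muscle form of Rpl3, was at 4.49 to 5.09 and at or below the unnamed median on 5 arrays. Rpl39l, known from the testis, was at 3.43 to 4.29 and at or below it on all 24. Neither had a called difference. Rps27l, a form of Rps27 induced by p53, was at 6.78 to 7.35 with differences no larger than 0.12 in any contrast, none of them called.

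The 58 genes have 128 further probe sets with the same single symbols, and 89 of the 128 had the sign of the chosen probe set for the mean difference between replicate sets. Of the 128, 32 (25.0%) had replicates 1-4 wholly above 5-6 in both strains. This was less than the 37.9% of the chosen probe sets, and 11.3% of all genes had that order. Of the 16 genes with shared probe sets only, 12 (75%) had that order, led by Rpl35a (1.15 and 0.97), Rps24 (0.83 and 0.65) and Rpl37 (0.81 and 0.67). Their medians were 0.39 in BPH/2J and 0.29 in BPN/3J, and Rpl13a was at 0.28 and 0.26.

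Genes that work with the ribosome were counted from fixed lists. Of 49 genes of ribosome assembly and RNA polymerase I, 11 rose and 3 fell with age in BPH/2J and 9 rose and 2 fell in BPN/3J, with Nhp2, a small nucleolar RNA binding protein, at 0.51 ± 0.09 in BPH/2J and Nmd3, an export adaptor of the large subunit, at 0.36 ± 0.06 in BPN/3J. Of these 49 genes 19 (38.8%) were wholly higher in replicates 1-4 in both strains. Among 18 elongation factors and other transcripts with the pyrimidine motif, 9 (50%) were wholly higher and 3 wholly lower. Of 25 initiation factors 9 (36.0%) were wholly higher, and of 77 mitochondrial ribosomal proteins 15 (19.5%). Of 22 mTOR and growth control genes 3 (13.6%) were wholly higher and 4 (18.2%) wholly lower, where 11.3% and 7.61% of all genes were.

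Of all genes, 8.23% rose and 8.64% fell with age in BPH/2J, and 4.60% rose and 7.66% fell in BPN/3J. With age, 8 of the 25 initiation factors rose and 2 fell in BPH/2J, and 4 rose and 4 fell in BPN/3J. For the elongation list it was 3 and 2, then 3 and 1, and for the mTOR list 3 and 1, then 1 and 2. For the mitochondrial ribosomal proteins it was 15 and 2 in BPH/2J and 6 and 6 in BPN/3J. By strain, the mitochondrial list had 4 genes higher in BPH/2J with 2 lower in 6-week mice, and 6 with 2 in 26-week mice (2.99% and 4.42%, then 1.32% and 1.34%, of all genes), with Mrpl20 at 1.16 ± 0.10 and 1.12 ± 0.10. The polymerase I subunit gene Polr1b was lower in BPH/2J at both ages (-0.72 ± 0.08 and -0.71 ± 0.08). In the same contrasts 0 of the initiation factors and 0 of the elongation list passed in limma.

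Of 9 listed symbols of ribosomal and related proteins outside the symbol rule, 4 were measured. Fau, which encodes a small-subunit protein fused to a ubiquitin-like one, fell with age by 0.37 ± 0.10 in BPH/2J and by 0.345 ± 0.10 in BPN/3J, and differed between replicate sets by -0.44 and -0.46. Rpl7l1, a paralog of Rpl7, differed between sets by 0.54 and 0.61. Rpsa differed by -0.099 and -0.23, and Rps19bp1 by -0.023 and -0.047. Of the 4 genes, 3 were thus lower by their means in replicates 1-4 in both strains, opposite to most members. Of the small nucleolar RNA host genes 3 of 13 were measured. Gas5, whose transcript also begins with the pyrimidine motif, was lower in BPH/2J at 6 and 26 weeks (-1.66 ± 0.11 and -1.67 ± 0.11) and rose with age in both strains, by 0.37 ± 0.11 and 0.39 ± 0.11.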

How the data were processed

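Total RNA of 24 hypothalami was read out with 1 array per mouse (Affymetrix Mouse Gene 1.0 ST). Deposited were the authors' log2 values of 34760 probe sets; RMA and limma are the tools the submitters' processing notes list. Their versions, and the annotation, were not given in the sources used here. A platform table gave 21640 probe sets 1 symbol, 1321 several and 11799 none. The probe set with the highest mean stood for each of 19937 genes. limma 3.58.1 in R 4.3.3 fitted a mean per group on all arrays (20 residual degrees of freedom), with adjusted p-values over all genes per contrast. Alternatives were the compared groups only, a replicate block, a term for 26-week replicates 5-6, either set alone, the mean of all probe sets, median centring, array weights, a filter on dim probe sets and leaving out each array. The members and lists were chosen with earlier results of these data known. Named were up to 4 called members per contrast and direction, the 4 with the largest and smallest difference between replicate sets, the 3 brightest and 3 dimmest, and fixed members; other members were named after their values were seen. In simulated data with 200 of 19937 genes changed, the test found 98.8%, 98.6%, 95.6%, 99.4% and 99.8% of those shifted by 1 log2 unit, and 79.8%, 79%, 52%, 79.6% and 81.4% of those shifted by 0.5, for strain at 6 and 26 weeks, the interaction, and age in BPH/2J and BPN/3J, with 3.92% to 6.69% of calls false. The simulated spread was independent between genes and arrays and held no replicate sets. These rates therefore need not hold for contrasts that use 26-week arrays. Same-numbered arrays had 6 of 6 correlations of their deviations above 0.1 for strain at 26 weeks (0.13 to 0.44), which met the rule for pairing. There, 3 arrays correlated best with their own number. Same-numbered arrays also fall in the same replicate set, so the numbers need not mark pairs. Correlations above 0.1 were 4 of 6 for age in BPH/2J (0.012 to 0.41) and 0 in the other 2 contrasts. No array pair of a group was a duplicate.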

Additional observations from a re-analysis of the deposited data

Results flagged for a closer look

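Single arrays stood apart from the other 5 of their group in 5 of 112 tests of members and subunit medians, and chance flags about 1 in 20 groups. Rpl22 was lowest at 8.15 in BPH/2J 6-week replicate 3, where the others were 8.42 to 8.50. Rpl34 was highest at 6.90 in BPN/3J 26-week replicate 4 (others 6.46 to 6.57). In BPH/2J 6-week replicate 6, Rplp1 was highest at 12.68 (others 12.32 to 12.45) and Rps18 lowest at 12.15 (others 12.32 to 12.41). The small-subunit median was highest at 10.40 in BPN/3J 6-week replicate 6 (others 10.26 to 10.31).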

How the results depend on the processing

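With array weights, 9 members were called for strain at 6 weeks, 30 for BPH/2J age and 37 for BPN/3J age. Shares of all genes are not given for array weights, the replicate block, the compared groups only, the mean of all probe sets or leaving out 1 array. Counts from those fits show how the calls depend on the fit and are not read as particular to the members. With only the compared groups in the fit, 1 was called for strain at 26 weeks. With a term for 26-week replicates 5-6, the age counts were 26 in BPH/2J and 31 in BPN/3J, with replicates 1-4 alone 33 and 37, and with replicates 5-6 alone 0 and 0, as for strain at 26 weeks (0). Rps15 turned from 0.84 to -0.17 for age in BPH/2J with replicates 5-6. The causes were not tested, and the subsets also hold fewer arrays. Leaving out 1 array gave 3 to 6 members called for strain at 6 weeks, 2 to 4 at 26 weeks, 0 to 0 for the interaction, 4 to 24 for BPH/2J age and 13 to 29 for BPN/3J age. The members' median strain difference at 26 weeks ran from -0.014 to 0.069 without 1 array; with replicates 5-6 alone they were -0.024 for strain at 26 weeks and -0.034 for age in BPH/2J. The replicate block gave 5 and 3 strain calls, the same genes, 0 interaction calls, and age counts of 20 in BPH/2J and 26 in BPN/3J, where the numbers do not meet the rule for pairing, with 4 of 6 and 0 of 6 correlations above 0.1. With the mean of all probe sets Rps9 lost both strain calls, and Rps13 was called lower in BPH/2J at both ages. For 17 calls, those named for being among up to 4 per contrast and direction, 490 comparisons kept the call, 58 lost it and 1 reversed. This tally includes the fits without 1 array. It leaves out the other called members, several of which were lost in such fits, as stated with the age results. Dim members limit the reading: Rpl39l, Rpl10l and Rpl3l lay at or below the unnamed median on 24, 7 and 5 arrays, and each replicates 5-6 estimate rests on 2 arrays a group.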
